A study of Caenorhabditis elegans with 2 samples.

Results

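The genes described here encode 3 families of secreted peptides of Caenorhabditis elegans: the FMRFamide-like peptides (flp), the neuropeptide-like proteins (nlp) and the insulin-like peptides (ins). Their binding by ZTF-11 was read from ChIP-seq region lists. Members were taken by name, as every protein-coding gene whose symbol starts with flp-, nlp- or ins-. There were 31 flp, 71 nlp and 38 ins genes, together 140 of the 19973 protein-coding genes on the nuclear chromosomes. The rule uses gene names alone and no measured value.

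ZTF-11 belongs to the Myt1 family of zinc-finger proteins, transcription factors known from neurogenesis. Its C-terminal fusion to a GFP-FLAG tag was carried as the transgene wgIs236 in the strain OP236, whose genotype is unc-119(ed3) III with that transgene. The chromatin was taken from whole L1 larvae of mixed sex. The 2 biological replicates formed 1 group that shared strain, transgene and stage, so no contrast between conditions was possible. Because whole larvae were used, a region bound in few cells and a region bound weakly in many cannot be told apart. The age of the larvae is unknown per the labels, and the labels do not say which promoter drives the tagged protein. The question addressed was whether the tagged protein was recovered near the starts of peptide genes more or less often than near other genes.

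Peptide genes are read out mainly in neurons, though several are known from the intestine and the epidermis. Their products are made as precursors, cut and trimmed by processing enzymes, stored in dense-core vesicles and released to act on receptors of other cells. FMRFamide-like and other neuropeptides act mostly on G protein-coupled receptors and tune locomotion, sleep, feeding and egg laying. Insulin-like peptides act on the receptor DAF-2 and, through a kinase cascade, on the transcription factor DAF-16, and are known for their part in the choice between growth and dauer arrest. A group of nlp genes encodes glycine-rich antimicrobial peptides of the epidermis that are induced by infection and wounding.

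A region list was deposited for each replicate and for the pooled reads of both. Each list was made as input for the irreproducible discovery rate procedure and therefore holds background as well as peaks. The nuclear regions numbered 29977 in replicate 1, 30000 in replicate 2 and 30000 in the pooled list, with a median width of 350 bp. Signal, the authors' own value per region, ran from 12.3 to 127 over the pooled regions, from 7.42 to 62.6 over those of replicate 1 and from 6.94 to 64.1 over those of replicate 2. It was compared within a list only. The thresholded list, called the consensus here, held 88 peaks. A gene was assigned every region whose summit lay at most 1000 bp before or 500 bp after an annotated transcript start, and the region of highest signal was its best region. The lists hold no read counts, so depth was unknown. Intervals are exact 95% binomial (Clopper-Pearson) intervals that cover the counting of genes only, and neighbouring genes are not independent.

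Peptide genes had a listed region about as often as other genes within this window. In the pooled list 62 of 140 had one, or 44.3% (35.9% to 52.9%), and the share over all protein-coding genes was 45.2%. Replicate 1 gave 59 members, or 42.1% (33.9% to 50.8%), beside 44.8% of all genes. Replicate 2 gave 60 members, or 42.9% (34.5% to 51.5%), beside 45.7%. In each list the interval of the members included the share of all genes. Among genes with a single annotated start, for which every window has the same width of 1501 bp, the pooled share was 43.2% (48 of 111) beside 39.9%. Closer to the start the share of members was the lower in each list. With summits within 500 bp either side of a start, 37 members had a pooled region, or 26.4% (19.3% to 34.5%), beside 34.2% of all genes. In that narrower window replicate 1 gave 22.9% (16.2% to 30.7%) beside 33.6%, and replicate 2 gave 25% (18.1% to 33%) beside 34.6%. The share of all genes lay inside the interval in the pooled list and above it in both replicates. The narrower window was not counted for genes with a single start alone, which make up 79.3% of members and 72.6% of all genes.

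The 3 families did not keep 1 order from list to list. For flp genes the pooled count was 12 of 31, or 38.7% (21.8% to 57.8%), with 41.9% in replicate 1 and 35.5% in replicate 2. For nlp genes the pooled count was 34 of 71, or 47.9% (35.9% to 60.1%), with 42.3% and 50.7% in the replicates. For ins genes it was 16 of 38, or 42.1% (26.3% to 59.2%), with 42.1% and 34.2%. Every family's pooled interval took in the 45.2% of all genes. As a comparison within the same lists, 58 of 78 genes named rpl- or rps- with a number, which encode cytosolic ribosomal proteins, had a pooled region, or 74.4% (63.2% to 83.6%).

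**Figure D1:**
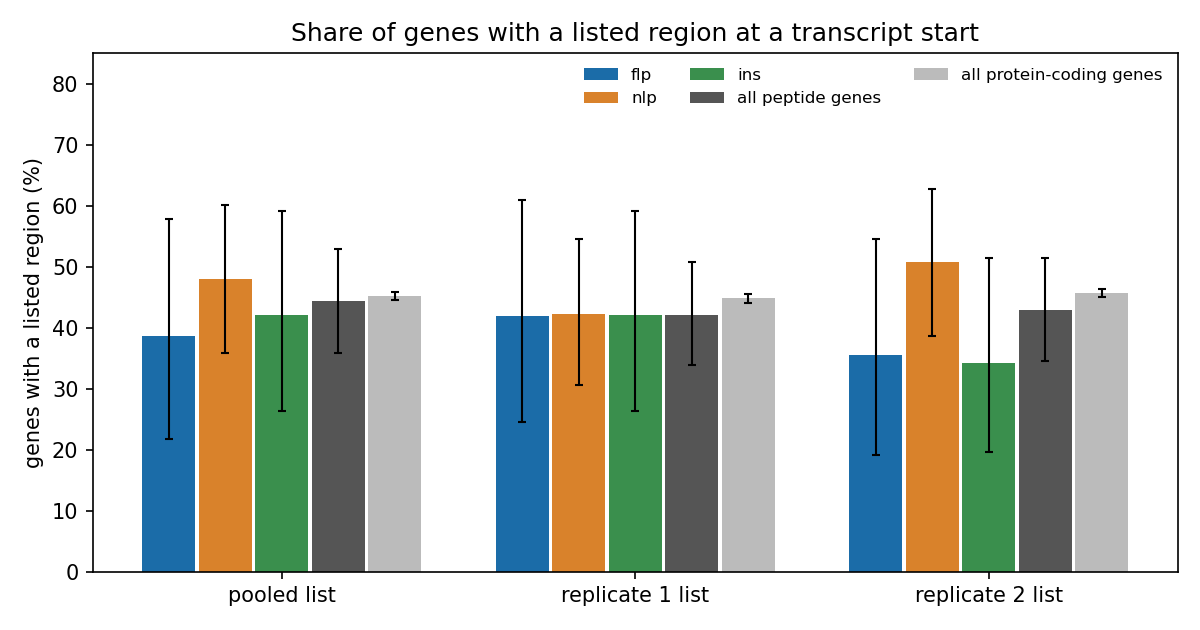
Share of genes with a listed region at a transcript start, in percent, for each of the 3 lists; bars are the flp, nlp and ins families, all peptide genes and all protein-coding genes, and error bars are exact 95% binomial intervals over genes. The bars of all peptide genes, at 44.3%, 42.1% and 42.9%, lie within 3 percentage points of those of all protein-coding genes.

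Few members had a best region of high signal, at shares near those of other genes. The 1000 highest pooled regions held the best region of 2.9% of all genes, and of 2 members, ins-39 and nlp-60, or 1.43% of 140 (0.173% to 5.07%). Among the 5000 highest pooled regions were the best regions of 12 members, or 8.57% (4.51% to 14.5%), beside 10.6% of all genes. These were flp-34, flp-12, flp-4 and flp-18, nlp-60, nlp-41, nlp-47, nlp-36, nlp-80 and nlp-13, and ins-39 and ins-36. Replicate 1 placed 4 members, or 2.86%, among its 1000 highest nuclear regions beside 2.48% of all genes, and 10, or 7.14%, among its 5000 highest beside 9.72%. Replicate 2 placed 2 members, or 1.43%, among its 1000 highest beside 2.73%, and 16, or 11.4%, among its 5000 highest beside 10.6%. The 5 members found among the 1000 highest of at least 1 replicate were flp-12, flp-24, nlp-47, nlp-60 and ins-39, and of these ins-39 alone was there in both. With 2 to 4 members per list, these counts cannot separate the peptide genes from the background.

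The median signal of the best regions was close to that of other genes. Over the 62 members with a pooled region it was 15.8 (distribution-free 95% interval 15 to 16.9), beside 17 over all genes with a region, and 21 of the 62 lay above the median of all genes. It was 17.2 for flp, 15.6 for nlp and 15 for ins, where 3 of 16 lay above the median of all genes. In replicate 1 the members' median was 10 beside 10.4, and in replicate 2 it was 10.1 beside 9.77. The pooled difference was therefore not repeated in replicate 2, where the members lay slightly above other genes.

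**Figure D2:**
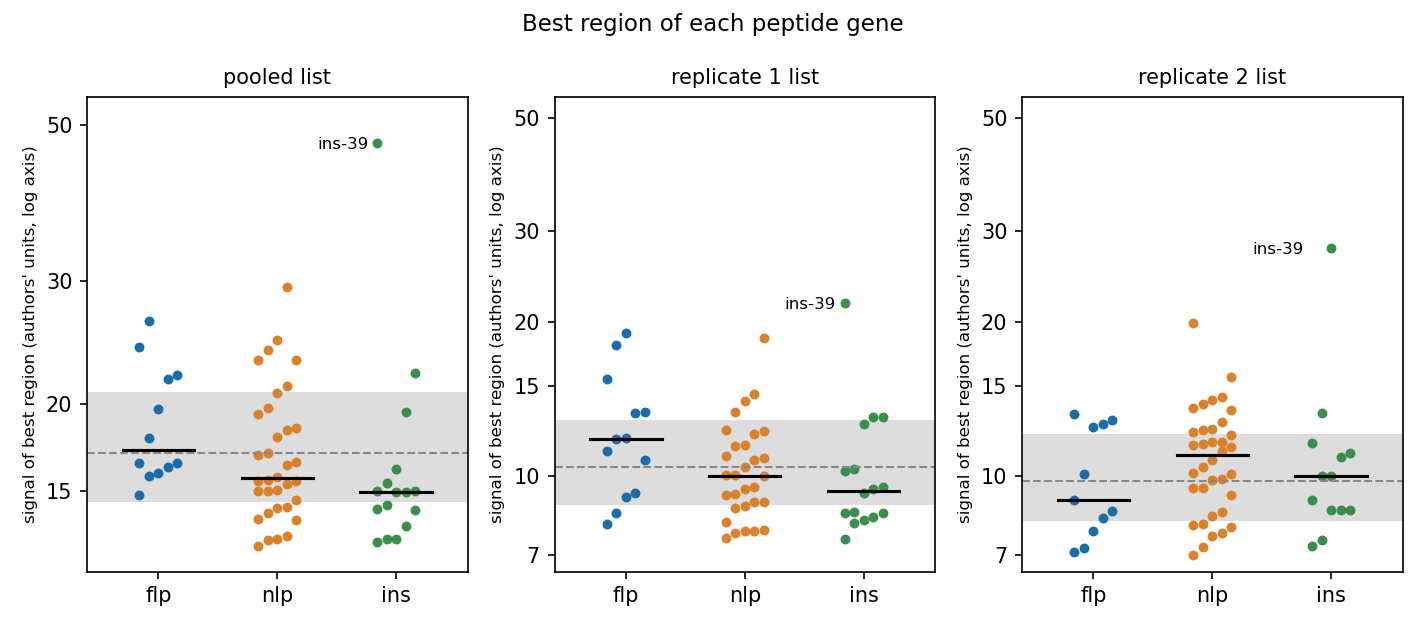
Signal of the best region of each flp, nlp and ins gene that had one, on a log axis in the authors' units, with a panel per list and a point per gene; black lines are family medians, the dashed line is the median over all protein-coding genes with a region and the grey band spans their quartiles. In the pooled list ins-39, at 47.2, stands apart from the other members, the next of which is nlp-60 at 29.4.

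The member of highest signal in all 3 lists was ins-39 (WBGene00017668), an insulin-like peptide gene on X. It was the only member whose window held a consensus peak, 1 of 140 or 0.714% (0.0181% to 3.92%), beside 0.411% of all genes. The pooled region, chrX:1344833-1345182 on ce11, had a signal of 47.2 and rank 50, and its summit was intergenic, 587 bp upstream of the start. In replicate 1 the best region had a signal of 21.8 and rank 221 with its summit 655 bp upstream, and in replicate 2 a signal of 27.9 and rank 44 with its summit 586 bp upstream. Both replicates thus placed a region of high rank at the same place, with summits 69 bp apart. No other coding gene had its start close by: the nearest, that of ttr-37, lay 7833 bp from the summit, and the nearest noncoding gene was a pseudogene at 5545 bp. Of 2731 protein-coding genes on X, 4 were consensus targets (0.146%), of which ins-39 was 1.

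The sequences around the pooled summits are shown for the 2 members of highest pooled signal in each family that had matched regions in both replicates and were eligible for printing, since these are the members whose position is seen in every list. Each runs 75 bp to either side of the summit on the plus strand of ce11, as read from the RefSeq assembly. Capitals mark AAGTT or its reverse complement AACTT, the word known from Myt1 family factors.
ins-39 (chrX:1344933-1345083): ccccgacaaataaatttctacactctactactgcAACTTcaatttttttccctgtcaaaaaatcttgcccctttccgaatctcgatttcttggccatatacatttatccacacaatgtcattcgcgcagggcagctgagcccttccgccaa
flp-34 (chrV:1032091-1032241): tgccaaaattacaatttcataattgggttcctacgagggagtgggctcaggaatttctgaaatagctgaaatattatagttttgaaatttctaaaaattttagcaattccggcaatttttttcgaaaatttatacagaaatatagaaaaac
flp-12 (chrX:4593106-4593256): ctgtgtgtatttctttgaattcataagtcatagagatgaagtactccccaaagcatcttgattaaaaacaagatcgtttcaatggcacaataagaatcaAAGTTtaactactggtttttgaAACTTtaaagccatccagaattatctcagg
nlp-60 (chrIV:8679567-8679717): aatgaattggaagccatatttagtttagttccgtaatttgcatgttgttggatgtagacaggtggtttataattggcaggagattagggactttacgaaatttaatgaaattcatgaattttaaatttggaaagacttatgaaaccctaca
nlp-41 (chrII:14549906-14550056): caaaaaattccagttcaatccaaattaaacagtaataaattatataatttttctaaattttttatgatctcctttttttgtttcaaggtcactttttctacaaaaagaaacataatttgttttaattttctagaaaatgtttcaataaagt
ins-21 (chrIII:10023134-10023284): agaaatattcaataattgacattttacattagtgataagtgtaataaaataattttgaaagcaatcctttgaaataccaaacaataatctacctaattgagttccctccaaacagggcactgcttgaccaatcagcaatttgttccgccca
The word stood 41 bp before the ins-39 summit and 24 and 46 bp after the flp-12 summit. The other 4 windows held none. Base composition ranged widely, from 19.9% GC at nlp-41 to 43.7% at ins-39.

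Among flp genes the highest pooled signals were those of flp-34, flp-12, flp-4, flp-18 and flp-16. At flp-34 the pooled signal was 26.2 (rank 1363), with 13.4 (rank 4772) in replicate 1 and 12.5 (rank 4546) in replicate 2. It was the only flp gene among the 5000 highest regions of both replicates, and the 2 replicate summits, in an intron of flp-34 itself, lay 3 bp apart. At flp-12 the pooled signal was 24.1 (rank 2335), with 18 (rank 853) in replicate 1 and 8.54 (rank 18368) in replicate 2. Its summits lay from 783 to 846 bp upstream, so the position was repeated while the rank was high in replicate 1 only. The flp-4 region had a pooled signal of 22 (rank 3920). Its summit lay within the gene, in an intron of flp-4, 998 bp upstream of the inner of its 2 starts and just inside that window. Replicate 2 had the same position with 13.2, whereas the best region of replicate 1 lay 290 bp downstream of that start with 11.8.

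The remaining flp genes named by rule had a region in fewer lists. For flp-18, whose peptides act on feeding and locomotion, the pooled signal was 21.7 (rank 4196) at 72 bp upstream and the replicate 1 signal 13.3 (rank 4890), with no region in replicate 2. For flp-16 a pooled region of 19.7 (rank 6742) had no counterpart in either replicate. For flp-24, known with flp-13 from sleep after cellular stress, replicate 1 gave a signal of 19 (rank 597), the pooled list 16.4 (rank 13838) and replicate 2 none. A region that ranked high in 1 replicate was thus of middle rank after pooling. For flp-1, known for its role in locomotion, the pooled signal was 15.9 and the replicate 1 signal 10.7, with no region in replicate 2, and the pooled summit lay in an intron of daf-10. For flp-11, the main sleep peptide of the RIS neuron, the pooled signal was 15.8 and the replicate 2 signal 12.8, with no region in replicate 1. No list had a region at flp-13 or at flp-21, a ligand of the receptor NPR-1.

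Among nlp genes the highest pooled signals were those of nlp-60, nlp-41, nlp-47, nlp-36 and nlp-80. At nlp-60 the pooled signal was 29.4 (rank 623) and the replicate 1 signal 18.6 (rank 696), but the replicate 2 signal of 7.02 had rank 29256, near the lower end of that list. The 3 summits lay 317 or 318 bp upstream, so the same position had unlike ranks. At nlp-41 the signals were 24.7 (rank 2011) pooled, 14 (rank 3779) in replicate 1 and 10.4 (rank 9912) in replicate 2, with summits 927 to 932 bp upstream. At nlp-47, which encodes a peptide of the gonadotropin-releasing hormone and adipokinetic hormone type, the signals were 23.9 (rank 2445) pooled and 19.9 (rank 225) in replicate 2, with no region in replicate 1. At nlp-36 they were 23.1 (rank 2992) pooled, 8.15 in replicate 1 and 10.1 in replicate 2. At nlp-80 the pooled signal was also 23.1 (rank 3006), with 9.2 and 8.05 in the replicates, and the summits lay 249 to 272 bp downstream of the start. Beyond the named rule, nlp-13 was the sixth of the nlp genes among the 5000 highest pooled regions, at 21.2 (rank 4711).

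For nlp-40, an intestinal peptide of the defecation rhythm, the signals were 14.6, 8.89 and 7.26 in the pooled, replicate 1 and replicate 2 lists. The 3 best regions were at different places, and the replicate summits lay 838 bp apart. For nlp-22, a sleep peptide of the RIA neuron, replicate 2 alone had a region, of signal 8.03. No list had a region at nlp-12, a cholecystokinin-like peptide of the DVA neuron, or at nlp-29, the best known epidermal antimicrobial gene.

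The epidermal antimicrobial genes nlp-24 to nlp-34 differed between replicates in how often they were listed. In the pooled list 9 of 11 had a region, or 81.8% (48.2% to 97.7%), beside 45.2% of all genes. Replicate 2 listed 7, or 63.6% (30.8% to 89.1%), beside 45.7%, but replicate 1 listed 3, or 27.3% (6.02% to 61%), beside 44.8%. Both replicate intervals took in the share of all genes. The 60 other nlp genes had a pooled share of 41.7% (29.1% to 55.1%), with 45% in replicate 1 and 48.3% in replicate 2. The 7 replicate 2 signals ran from 11.4 to 14.1, all above that list's all-gene median of 9.77, whereas the 3 in replicate 1 were 7.59 (nlp-26), 7.74 (nlp-32) and 11.4 (nlp-28), with 1 above the median of 10.4. The pooled signals ran from 12.9 (nlp-27) to 20.7 (nlp-28), and none was among the 5000 highest. No region was listed at nlp-24 or nlp-29. Neighbours share position here: nlp-31 and nlp-34 had the same pooled best region, and 6 of the 11 genes lie in 1 cluster on V.

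Among ins genes the highest pooled signals after ins-39 were those of ins-36, ins-34, ins-13 and ins-18. At ins-36 the signals were 22.1 (rank 3764) pooled, 8.48 in replicate 1 and 11.1 in replicate 2, with summits 378 to 382 bp downstream of the start. The pooled summit lay in an exon of another gene, Y53H1A.7, and 77 bp from the antisense RNA gene anr-40. At ins-34 they were 19.4 (rank 7108), 10.2 and 11.6, and at ins-13 they were 16.1 and 8.49 with no region in replicate 2. For ins-18, an insulin antagonist, the pooled signal of 15.4 had no counterpart in either replicate. The fall from ins-39 to the next ins gene was therefore from 47.2 to 22.1 in the pooled list.

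Insulin-like peptides taken as agonists of DAF-2 had few listed regions in the pooled and replicate 1 lists, within wide intervals. Of 8 (ins-3, ins-4, ins-6, ins-7, ins-9, ins-32, ins-33 and ins-35), 1 had a pooled region, or 12.5% (0.316% to 52.7%) beside 45.2% of all genes. In replicate 1 it was also 1, beside 44.8%, and in replicate 2 it was 3, or 37.5% (8.52% to 75.5%), beside 45.7%. The pooled one was ins-4, with a signal of 15 in an exon of ins-4, 400 bp downstream of its start and also in the window of the neighbour ins-5. Replicate 2 had a signal of 10 at 424 bp downstream, and the replicate 1 region of 9.27 lay elsewhere, 316 bp upstream. Of 4 antagonists (ins-1, ins-17, ins-18 and ins-37), 1 had a pooled region (ins-18), 1 a replicate 1 region (ins-17, 12.6) and 0 a replicate 2 region. No list had a region at ins-1, ins-6 or ins-7. With 8 and 4 genes, these counts do not set the groups apart from other genes.

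Regions were repeated between replicates for a small number of members. Of the 140 members, 33 had a region in both replicate lists, and for 14, or 10% (5.58% to 16.2%), the best regions had summits within 200 bp, beside 9.52% of all genes. The 14 were flp-6, flp-12, flp-27 and flp-34, nlp-26, nlp-28, nlp-36, nlp-41, nlp-60, nlp-80 and nlp-81, and ins-21, ins-36 and ins-39. Their median summit gap was 48 bp, and over the 1902 matched genes of the whole genome it was 65 bp. A region in all 3 lists was found for 28 members, or 20%, beside 22% of all genes, and in no list for 46, or 32.9% (25.2% to 41.3%), beside 32.5%. The members in no list were 14 flp, 18 nlp and 14 ins genes, or 45.2%, 25.4% and 36.8% of their families. A further 8 members, or 5.71%, were listed in the pooled list alone, beside 2.22% of all genes.

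Signal in the replicates was only loosely related over the 33 members listed in both. Spearman's rho was 0.162 and Pearson's r of log2 signal 0.272, and without ins-39 they were 0.0806 and -0.0481 over 32 genes. Over the 5043 protein-coding genes listed in both they were 0.14 and 0.22. Only 14 of the 33 members had matched best regions, so most pairs set signals of different regions side by side. Over those 14 rho was 0.0022, beside 0.219 over the 1902 matched genes. These are descriptions across genes within a pair of libraries made from the same strain.

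**Figure D3:**
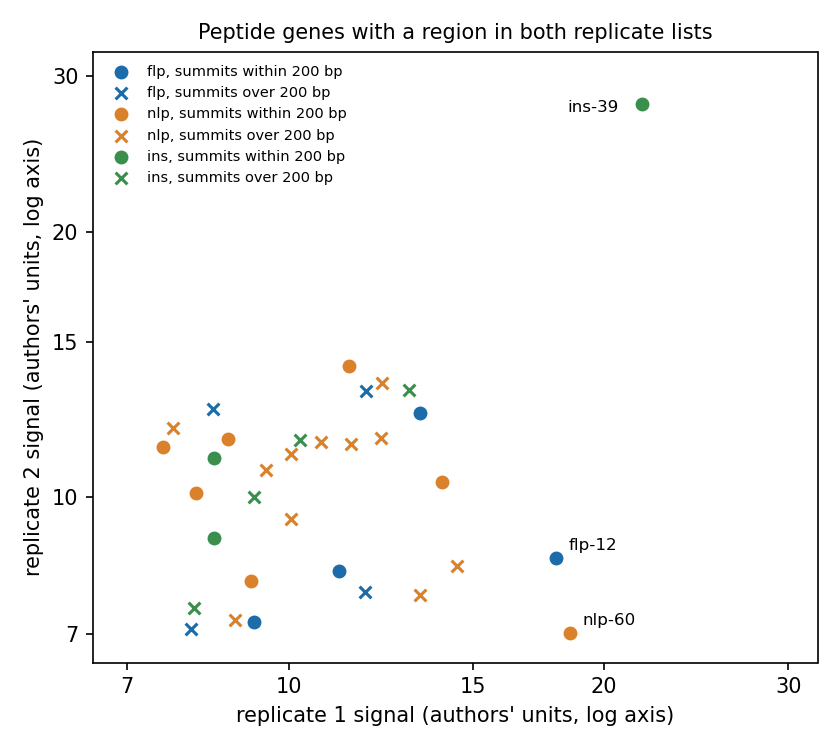
Signal of the best region in replicate 1 (horizontal, log axis, authors' units) and replicate 2 (vertical, log axis) for the 33 peptide genes listed in both; symbols distinguish the 14 genes whose summits lay within 200 bp from the others. The point of ins-39, at 21.8 and 27.9, lies at the upper right, and the remaining 32 points show no order, with r at -0.0481.

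Best regions of members lay farther upstream of the start than those of other genes. In the pooled list the summit was upstream at 50 of 62 members, or 80.6% (68.6% to 89.6%), beside 71% over all genes with a region, which that interval takes in. It lay more than 500 bp upstream at 29, or 46.8% (34% to 59.9%), beside 29.8%, and 0 to 500 bp downstream at 12, or 19.4% (10.4% to 31.4%), beside 28.6%. The median position, signed and taken from the nearest start of each gene, was 464 bp upstream, beside 247 bp. On this scale summits on either side of a start offset each other, so it is not a median distance. The same direction held in both replicates, with 47.5% and 48.3% of members more than 500 bp upstream beside 31.1% and 29.7%. By family the pooled median position was 588 bp upstream for flp, 483 bp for nlp and 152 bp for ins. Of the 16 ins summits, 6 (37.5%) lay downstream. For ins the median position was 518 bp upstream in replicate 1 and 251 bp in replicate 2, beside 255 bp and 241 bp of all genes. Peptide genes also lay farther from their neighbours, with a median of 2599 bp to the nearest other coding start (4515 bp for flp, 2999 bp for nlp and 2053 bp for ins) beside 2032 bp over all genes. The part of this spacing in the positions was not tested. Just inside the outer limit of the window lay the region of flp-4, counted from the inner of its 2 starts and so within the gene. Just outside the limit lay regions of flp-10, nlp-13, nlp-51 and nlp-60, 1015 to 1038 bp upstream. Their pooled signals ran from 14.8 (nlp-13) to 23.4 (nlp-60). By the annotation, 37 of the 62 summits were intergenic, 11 in introns and 14 in exons.

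**Figure D4:**
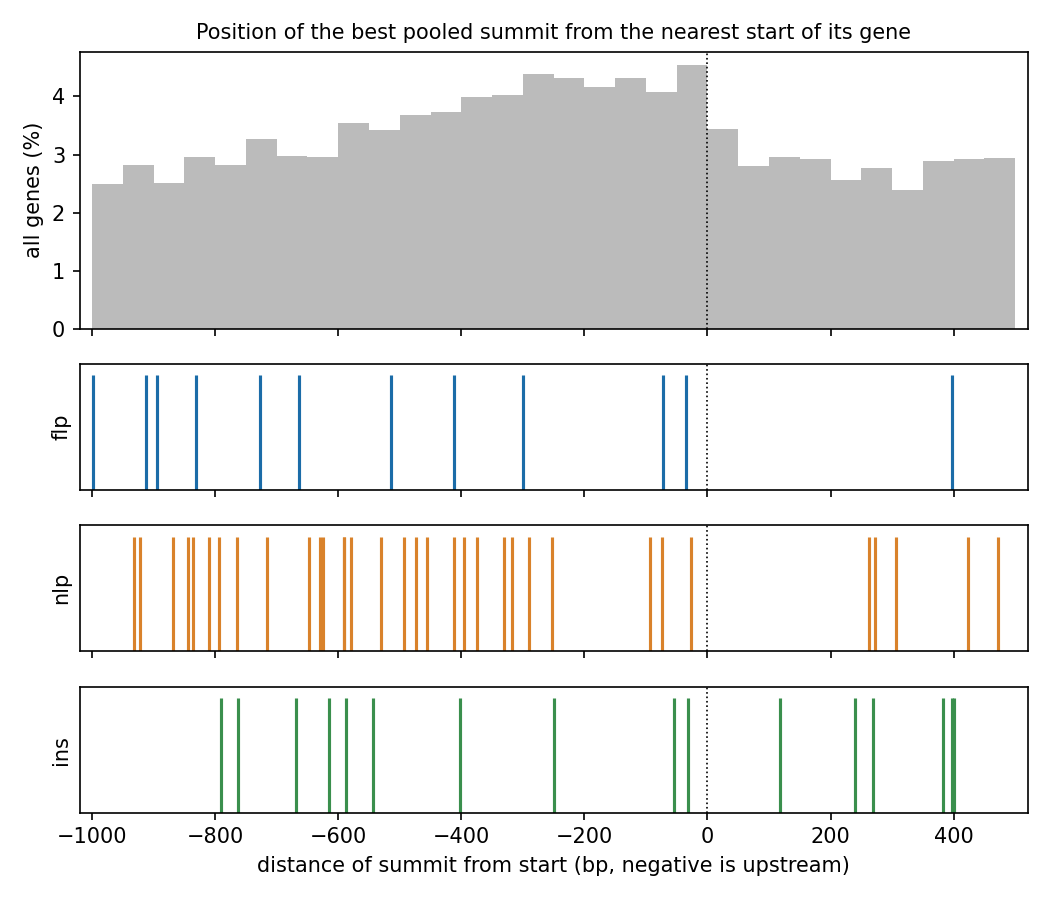
Distance of the best pooled summit from the nearest start of its gene, in bp, with negative values upstream. The upper panel gives, for all protein-coding genes with a region, the percentage per 50 bp class, and each vertical line in the lower panels is 1 flp, nlp or ins gene. Of the 62 members, 29 lie more than 500 bp upstream, and 12 downstream.

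The best region also lay in the window of another coding gene for 13 of 62 members, or 21% (11.7% to 33.2%), an interval that takes in the 25.5% of all genes. In replicate 1 it was 8.47% (2.81% to 18.7%) beside 24.8%, and in replicate 2 it was 16.7% (8.29% to 28.5%) beside 24.9%. The 62 best regions were 59 distinct ones, since 3 pairs of members, nlp-31 with nlp-34, ins-4 with ins-5 and ins-14 with ins-15, each had 1 region. The shares by family were 0 of 12 for flp, 8 of 34 for nlp and 5 of 16 for ins. Members also lie in clusters. With starts within 20 kb joined, 45 members fell into 13 clusters and 95 stood alone. In the cluster of ins-24 to ins-30 on chromosome I, 5 of 7 genes had a pooled region, 5 a replicate 1 region and 1 a replicate 2 region. The 5 pooled signals ran from 12.7 to 15, all below the all-gene median of 17. The nlp-27 to nlp-34 cluster on V, which lacks nlp-32 and nlp-33, had 5 of 6 genes with a pooled region, 1 with one in replicate 1 and 3 in replicate 2. The pair ins-7 and ins-8 had none in any list.

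Members on X had a lower share than autosomal members in the pooled list, within wide intervals, and not in replicate 2. Of 34 members on X, 10 had a pooled region, or 29.4% (15.1% to 47.5%), beside 42.5% of all X genes, and 52 of 106 autosomal members did, or 49.1% (39.2% to 59%), beside 45.6% of all autosomal genes. In replicate 1 the shares were 35.3% and 44.3%, beside 44% of all X genes and 44.9% of all autosomal genes. In replicate 2 they were 44.1% and 42.5%, beside 45.6% and 45.7%. The flp family has the highest share of its genes on X, 41.9%, beside 26.8% of nlp, 5.26% of ins and 13.7% of all protein-coding genes. Of the 13 flp genes on X, 3 had a pooled region, and 9 of the 18 elsewhere did.

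The AAGTT word was less frequent at pooled summits of members than at those of other genes, and the difference was smaller in each replicate. Searched as AAGTT and AACTT, so on both strands, within 50 bp of the summit, it was found at 9 of 62, or 14.5% (6.86% to 25.8%), beside 37% of all genes with a region. The 9 were flp-11, flp-12, flp-24, nlp-17, nlp-36, nlp-40, nlp-46, ins-18 and ins-39. In replicate 1 the share was 25.4% (15% to 38.4%) beside 37.4%, and in replicate 2 it was 33.3% (21.7% to 46.7%) beside 36.1%. In both replicates the interval took in the share of all genes, so the pooled shortfall was not separable there at 50 bp. Within 25 bp the pooled share was 8.06% (2.67% to 17.8%) beside 20.9%. Replicate 1 gave 8.47% (2.81% to 18.7%) beside 20.4% at that width, and replicate 2 gave 16.7% (8.29% to 28.5%) beside 20.1%. At 25 bp the share of all genes thus lay above the interval in the pooled list and replicate 1, and inside it in replicate 2. Within 100 bp the shares were 46.8% beside 59.9% in the pooled list, 47.5% beside 60% in replicate 1 and 61.7% beside 58.6% in replicate 2, where the direction turned. In the sequence from 250 bp before to 50 bp after the start the word was found for 96 of 140 members, or 68.6%, beside 69.2% of all genes. That stretch is wider than the summit window and was searched for members with and without a region. As 29 of the 62 pooled summits lay more than 500 bp upstream, it does not describe the sequence at the summits. Median GC content within 50 bp of the pooled summits was 33.7% for members and 31.7% for all genes. Its part in the count of words was not tested.

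Genes that process, carry, receive or relay the peptides and 6 peptide genes of other names had a pooled region more often than all protein-coding genes. Of these 143 genes, 83 had one, or 58% (49.5% to 66.2%), beside 45.2%. The difference was smaller in the replicates, where 51% beside 44.8% of all genes and 53.1% beside 45.7% had a region. In both replicates the exact interval over the 143 genes took in the share of all genes. Fewer of these genes have a single annotated start, 55.9% beside 72.6% of all protein-coding genes and 79.3% of the peptide genes. More starts can widen the window of a gene, though the median window was 1501 bp in each of these sets. Among the 80 with a single start the pooled share was 53.8% (42.2% to 65%), beside 39.9% of all such genes. Matched regions in both replicates were found for 12 of 143, or 8.39%, beside 9.52% of all genes. The larger pooled share thus did not come with a larger share of repeated positions.

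Among receptors, 42 of 79 genes named npr-, frpr- or dmsr- had a pooled region, or 53.2% (41.6% to 64.5%), beside 45.2% of all genes, and 14 were among the 5000 highest, or 17.7% (10% to 27.9%), beside 10.6%. Both intervals are wide, and each takes in the share of all genes. The highest was npr-39, with a pooled signal of 48.2 (rank 46) at 340 bp downstream of its start, and it was the only consensus target among the 143. Its replicate 1 signal was 38.9 (rank 10) and replicate 2 had no region, so the highest receptor rested on 1 replicate. Of 19 other peptide receptors 12 were listed, or 63.2% (38.4% to 83.7%), led by trhr-1, a receptor of the thyrotropin-releasing hormone type, with 26.4 pooled (rank 1303), 19.4 in replicate 2 (rank 269) and none in replicate 1.

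Among processing enzymes 8 of 11 were listed, or 72.7% (39% to 94%). The highest was the proprotein convertase gene kpc-1 with 26 pooled (rank 1439) and 11.3 in replicate 2, both upstream, while the 15.1 of replicate 1 was a region 482 bp downstream. Among 17 dense-core vesicle genes 9 were listed, or 52.9% (27.8% to 77%). The highest was unc-108, a Rab GTPase gene, with 30.7 pooled (rank 458) and 15.6 in replicate 2, at a place that also lay in the window of mpc-2, while the 14.8 of replicate 1 was at another start. Among 6 peptide genes of other names 5 were listed, or 83.3% (35.9% to 99.6%), led by lury-1 with 23.9 pooled (rank 2447) and 15.3 in replicate 2, and none in replicate 1. Each of these intervals takes in the 45.2% of all genes.

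The insulin pathway held a pair of genes of high signal. Of its 11 genes 7 had a pooled region, or 63.6% (30.8% to 89.1%), beside 45.2% of all genes. Their median signal was 21 (15.3 to 37.9) beside 17 over all genes, which lies within that interval. Matched regions in both replicates were found for 4 of the 11, and for 9.52% of all genes. At daf-16, the FOXO transcription factor at the end of the cascade, the signals were 37.9 (rank 122) pooled, 21.7 (rank 224) in replicate 1 and 17.4 (rank 626) in replicate 2. The pooled summit lay 476 bp upstream of 1 of its 7 starts. At akt-2, a kinase of the cascade, they were 29.8 (rank 565), 17.7 (rank 971) and 10.5, with the pooled summit 551 bp upstream of its single start. Both genes were thus above all insulin-like peptide genes except ins-39 in the pooled list.

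**Figure D5:**
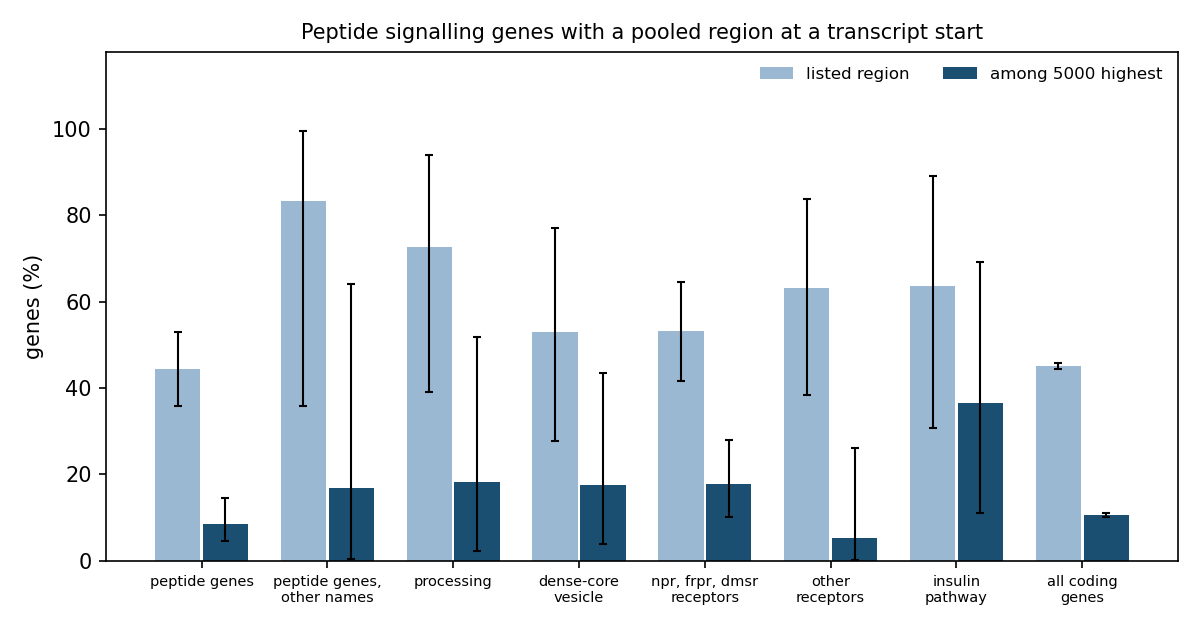
Share of genes with a pooled region (light bars) and with a best region among the 5000 highest (dark bars), in percent, for the 140 peptide genes, the lists of related genes and all protein-coding genes, with exact 95% binomial intervals over genes. The insulin pathway, at 63.6%, has an interval from 30.8% to 89.1% because it holds 11 genes.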

How the data were processed

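Per the labels and the deposited README texts, ChIP-seq of tagged ZTF-11 was made for 2 biological replicates of 1 group. The authors deposited narrowPeak lists for each replicate and for the pooled reads, made against a control library, and a thresholded list derived from them. The signal in each deposited list is the authors' own value per region, and its scaling between lists is not given. The aligner, the peak caller, its threshold and the control strain are not named in these sources.

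All coordinates are ce11, which is the WBcel235 genome. Genes came from the Ensembl release 115 annotation. The ce10 lists were not used here because no annotation of that build was at hand. Regions were ranked by signal within each list, after 23 mitochondrial regions of replicate 1 were left out. Gene windows, matching (summits within 200 bp) and word counts (within 50 bp) were computed with Python 3.11.15, NumPy 2.4.6 and SciPy 1.17.1, and figures were drawn with matplotlib 3.10.9. The counting was tested on simulated lists. No significance test was made, as there is 1 group. Of the names in the lists of related genes, 17 of 18 dense-core vesicle genes and 19 of 20 other receptors were found in the annotation.

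Members, gene lists and rules were chosen with earlier results of these data known. The genes named in the text were the 5 of highest pooled signal in each family, every member among the 1000 highest regions of a list or in the consensus, a set of well studied members whatever their value, and the related genes among the 1000 highest or in the consensus and the highest of each list. Any gene named outside that rule was picked with its values in view. The alternatives tried were other windows, rank limits, match distances and start rules, leaving out a replicate, and those named as added in the closing section.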

Additional observations from a re-analysis of the deposited data

How the results depend on the processing

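Of 59 alternative values for the results given, 46 kept their value within the limits set and 13 moved, and of 87 for single families 72 kept it and 15 moved. A count was called kept within a fixed fold limit, without regard to the share of all genes. A percentage or median ratio was called kept inside the interval of its main value, which is wide for small sets. The share of X members, 29.4% in the pooled list and 44.1% without replicate 1, thus counted as kept. A kept value therefore does not show that a result was repeated. With summits within 500 bp either side of a start, a narrower window that leaves out the ins-39 region, 37 members, or 26.4%, had a listed region beside 34.2% of all genes, below the 44.3% beside 45.2% of the main window, and the share was also lower in each replicate. In it 1 member was among the 1000 highest (2.15% of all genes), 6 among the 5000 highest (7.71%) and 0 in the consensus (0.32%). The upper 44 consensus peaks held 0 members, since ins-39 ranked 50, and 0.19% of all genes. Among the 500 highest regions was 1 member, beside 1.68% of all genes. Without ins-39 there was 1 among the 1000 highest, beside 2.9%. When replicate 1 was ranked with its mitochondrial regions included, 4 were there, beside 2.45%. Within 100 bp of the summit AAGTT was found at 46.8% of members beside 59.9% of all genes, a wider window than that of the main count. Without 1 replicate, with the list of the other in place of the pooled one, members with a listed region numbered 59 to 60. The share of all genes was 44.8% to 45.7%. Among the 1000 highest were 2 to 4 members (2.48% to 2.73% of all genes), and among the 5000 highest 10 to 16 (9.72% to 10.6%). The ratio of the members' median signal to that of all genes, 0.926 in the pooled list, was 0.965 without replicate 2 and 1.04 without replicate 1, so its direction turned. Shared best regions made up 8.47% (24.8% of all genes) to 16.7% (24.9%) and AAGTT 25.4% (37.4%) to 33.3% (36.1%). The related genes with a region numbered 73 (44.8% of all genes) to 76 (45.7%). The cause of these differences between replicates was not tested. Best regions matched between replicates for 10 members at 100 bp (6.39% of all genes) and 21 at 500 bp (14.9%). With any pair of regions in the window 16 members matched (13.4%). Leaving out ins-39, applying the other windows to each replicate and counting only genes with 1 start or each region once were added after the data were seen. No paired analysis was possible because both replicates belong to a single group. Without read counts no limit from depth could be set, and a gene without a listed region is not shown to be unbound.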

Other observations

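The members with a region in all 3 lists were 6 flp genes (flp-4, flp-6, flp-12, flp-23, flp-27 and flp-34), 15 nlp genes (nlp-4, nlp-9, nlp-13, nlp-26, nlp-28, nlp-32, nlp-35, nlp-36, nlp-40, nlp-41, nlp-60, nlp-71, nlp-76, nlp-80 and nlp-81) and 7 ins genes (ins-4, ins-15, ins-21, ins-26, ins-34, ins-36 and ins-39). The members in no list were 14 flp genes (flp-8, flp-9, flp-10, flp-13, flp-14, flp-15, flp-20, flp-21, flp-22, flp-25, flp-26, flp-28, flp-32 and flp-33), 18 nlp genes (nlp-1, nlp-5, nlp-6, nlp-8, nlp-11, nlp-12, nlp-14, nlp-24, nlp-29, nlp-49, nlp-53, nlp-56, nlp-58, nlp-63, nlp-64, nlp-66, nlp-69 and nlp-82) and 14 ins genes (ins-1, ins-2, ins-6, ins-7, ins-8, ins-9, ins-12, ins-16, ins-20, ins-23, ins-24, ins-32, ins-33 and ins-37). At flp-23 the pooled summit lay 26 bp from a tRNA gene, with a pooled signal of 17.8 and signals of 11.8 and 7.82 in the replicates. At flp-17, a peptide of the BAG neurons known from egg laying, replicate 1 had a signal of 15.5 (rank 2179) and the pooled list 16.2, both 398 or 399 bp downstream of the start, with no region in replicate 2.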
